A study of Homo sapiens with 12 samples.

Results

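The histone and protein lysine modifying enzymes described here are 62 of the 55737 named genes in the deposited expression tables of a human fibroblast line. The rule that picks them reads gene symbols and no measured value: the lysine demethylases named KDM, the histone deacetylases (HDAC), the sirtuins SIRT1 to SIRT7, the SETD, SETDB, SUV39H, SUV420H, EHMT and EZH genes, the protein arginine methyltransferases (PRMT), and EED, SUZ12 and DOT1L. The rule left out 3 of the 65 genes with such symbols. The members are 13 KDM, 11 HDAC, 7 SIRT and 8 PRMT genes and 23 lysine methyltransferases or subunits of Polycomb repressive complex 2 (PRC2). The PRMT enzymes methylate arginine, so the set is wider than lysine.

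RNA was sequenced from HCA2 (MJ90) fibroblasts of human skin that carry an inducible short hairpin, switched on with doxycycline. The hairpin is directed at FBXO22 (shFbxo22), the substrate-binding F-box protein of an SCF ubiquitin ligase, or at luciferase (shLuc), the control. Low-passage (young) cells were compared with cells irradiated with 10 Gy, which the labels call senescent. The 4 groups are shFbxo22 senescent, shFbxo22 young, shLuc senescent and shLuc young, with 3 libraries each. Every group comes from the same line, and nothing in the labels ties the 3 libraries to separate cultures, so a p-value reflects library-to-library spread that could be technical only. The authors' deposited tables hold 4 comparisons: senescent over young with each hairpin, and shFbxo22 over shLuc in each state. Each row gives a base mean (the normalized count averaged over 6 libraries), a log2 fold change with its standard error (SE), and a Wald p with its adjusted p. A member is called higher or lower where the adjusted p is under 0.05. Group means are given below in normalized counts, reconstructed from the base means and fold changes of the 2 tables in which each group stands. They carry no error of their own, no value per library was analysed here, and the depth of the libraries is unknown. The 2 reconstructions met within 10% for 60 of the 62 members, SIRT4 and PRMT8 being the exceptions.

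Histone tails carry marks that enzymes write and erase. Methylation of H3K9 and H3K27 marks silent chromatin, is written by the SUV39H, SETDB and EHMT enzymes and by EZH1 or EZH2 in PRC2, and is removed by KDM3, KDM4 and KDM6 enzymes. Methylation of H3K4, H3K36 and H3K79 marks transcribed genes, and removal of acetyl groups by HDAC and SIRT enzymes generally accompanies repression. In senescent fibroblasts, loss of EZH2 and rearrangement of H3K9-methylated chromatin have been described. Transcript levels, which are all that was measured here, do not give enzyme activity or the level of a mark.

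The targeted gene was examined first. FBXO22 had group means of 746 in the libraries labelled shFbxo22 senescent, 254 in shFbxo22 young, 371 in shLuc senescent and 438 in shLuc young libraries. It was lower with shFbxo22 in young cells, at -0.81 ± 0.15 on the log2 scale (SE) with adjusted p = 1.07e-06 by the Wald test of the authors' deposited table. Among senescent libraries FBXO22 went against the label and was 2.01-fold higher, at 1.01 ± 0.12 on the log2 scale (adjusted p = 7.91e-15) in the authors' deposited table. Directions that involve the libraries labelled shFbxo22 senescent are therefore directions by label. CDKN1A, a further planned check, had group means of 85966 in the libraries labelled shFbxo22 senescent and 16560 in shFbxo22 young libraries. The shLuc libraries had 3065 (senescent) and 703 (young), so the young shFbxo22 group stood above the irradiated shLuc group. With shFbxo22 it was higher by 4.51 ± 0.10 in young cells and by 4.80 ± 0.09 by label in senescent cells in the authors' deposited tables. The part of this in the results below was not tested. MKI67, a marker of dividing cells, had group means of 117 in the libraries labelled shFbxo22 senescent, 1564 in shFbxo22 young, 778 in shLuc senescent and 8448 in shLuc young libraries. Of 12 cell division markers, senescence with shFbxo22 left 10 lower and 1 higher, and senescence with shLuc left 12 lower, in the authors' deposited tables. Between the hairpins 12 were lower with shFbxo22 in young cells, and 9 were lower and 2 higher by label in senescent cells, in the authors' deposited tables. The young shFbxo22 libraries thus had lower cell division transcripts than the young shLuc libraries, and the part of this in the results below was not tested. All 10 of 10 fibroblast markers were expressed, FAP the least with a base mean of 1456 to 2764 in the authors' deposited tables. Their summed group means were 613664 in the libraries labelled shFbxo22 senescent, 655010 in shFbxo22 young, 579635 in shLuc senescent and 571122 in shLuc young libraries. Markers of other cell types were present in part. Of 6 keratinocyte markers 4 had a base mean under 1 in every table, KRT5 and KRT14 among them, while CDH1 reached 149 and KRT10 45.9 in the authors' deposited tables. Of 4 endothelial markers CDH5 was under 1, and KDR reached 374, TEK 94.6 and VWF 49.8 in the authors' deposited tables. PECAM1 had no value. Of 6 leukocyte markers 3 were under 1, with CD68 the highest at 26.9, and of 5 melanocyte markers MLANA and TYR were under 1 while MITF was at 952 to 1565 in the authors' deposited tables. None of 5 smooth muscle or pericyte markers was under 1, and CSPG4 was the highest, with a base mean of 5724 to 9198 in the authors' deposited tables. DES ranged from 42.9 to 649. The summed group means of the 5 were 7656 in the libraries labelled shFbxo22 senescent, 6168 in shFbxo22 young, 6540.5 in shLuc senescent and 13867 in shLuc young libraries. The part of these markers in the results below was not tested. In bulk RNA, fewer cells of a type and less RNA per cell cannot be told apart.

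With shFbxo22, 11 of 61 members tested were called in senescent against young libraries (4 higher, 7 lower), against 17.7% of 18758 genes (8.16% higher, 9.57% lower), so the share of members was near that of all genes tested. Senescence with shLuc called 36 of 61, 15 higher and 21 lower, against 42.6% of all 21889 genes tested (21.2% higher and 21.3% lower). SUV39H1 and EZH2 had the 2 largest fold changes downwards with each hairpin, and SETDB2 the largest upwards with shLuc. Between the hairpins in young cells 31 of 61 were called (11 higher, 20 lower), against 35.9% of 20082 genes (18.7% higher, 17.3% lower). Between the hairpins in senescent cells 35 of 61 were called (12 higher, 23 lower), against 40.1% of 22788 genes (20.2% higher, 19.9% lower). The members were better expressed than most genes, with a median base mean of 600 in the shLuc senescence table, against 135 for all genes tested. When the base mean had to reach 50, with p adjusted over the genes left, the shares for senescence with shFbxo22 moved apart. They were 19% of members against 24.3% of genes. In the other comparisons the shares came closer. They were 66.7% against 62.6% for senescence with shLuc, 55.2% against 49% between the hairpins in young cells, and 59.6% against 59.1% in senescent cells. Split by direction, of members with a base mean of at least 50, 12.1% were lower with senescence in shFbxo22 (13.1% of genes), 40.4% with senescence in shLuc (31.2% of genes), 36.2% with shFbxo22 in young cells (23.8% of genes) and 40.4% by label in senescent cells (29.3% of genes). The shares called higher, in the same order of comparisons, were 6.9% of members (11.2% of genes), 26.3% (31.3%), 19% (25.2%) and 19.3% (29.8%). The median log2 fold changes of the members were -0.06, -0.06, -0.16 and -0.12 in that order, against medians of all genes between -0.01 and 0.00.

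**Figure D1:**
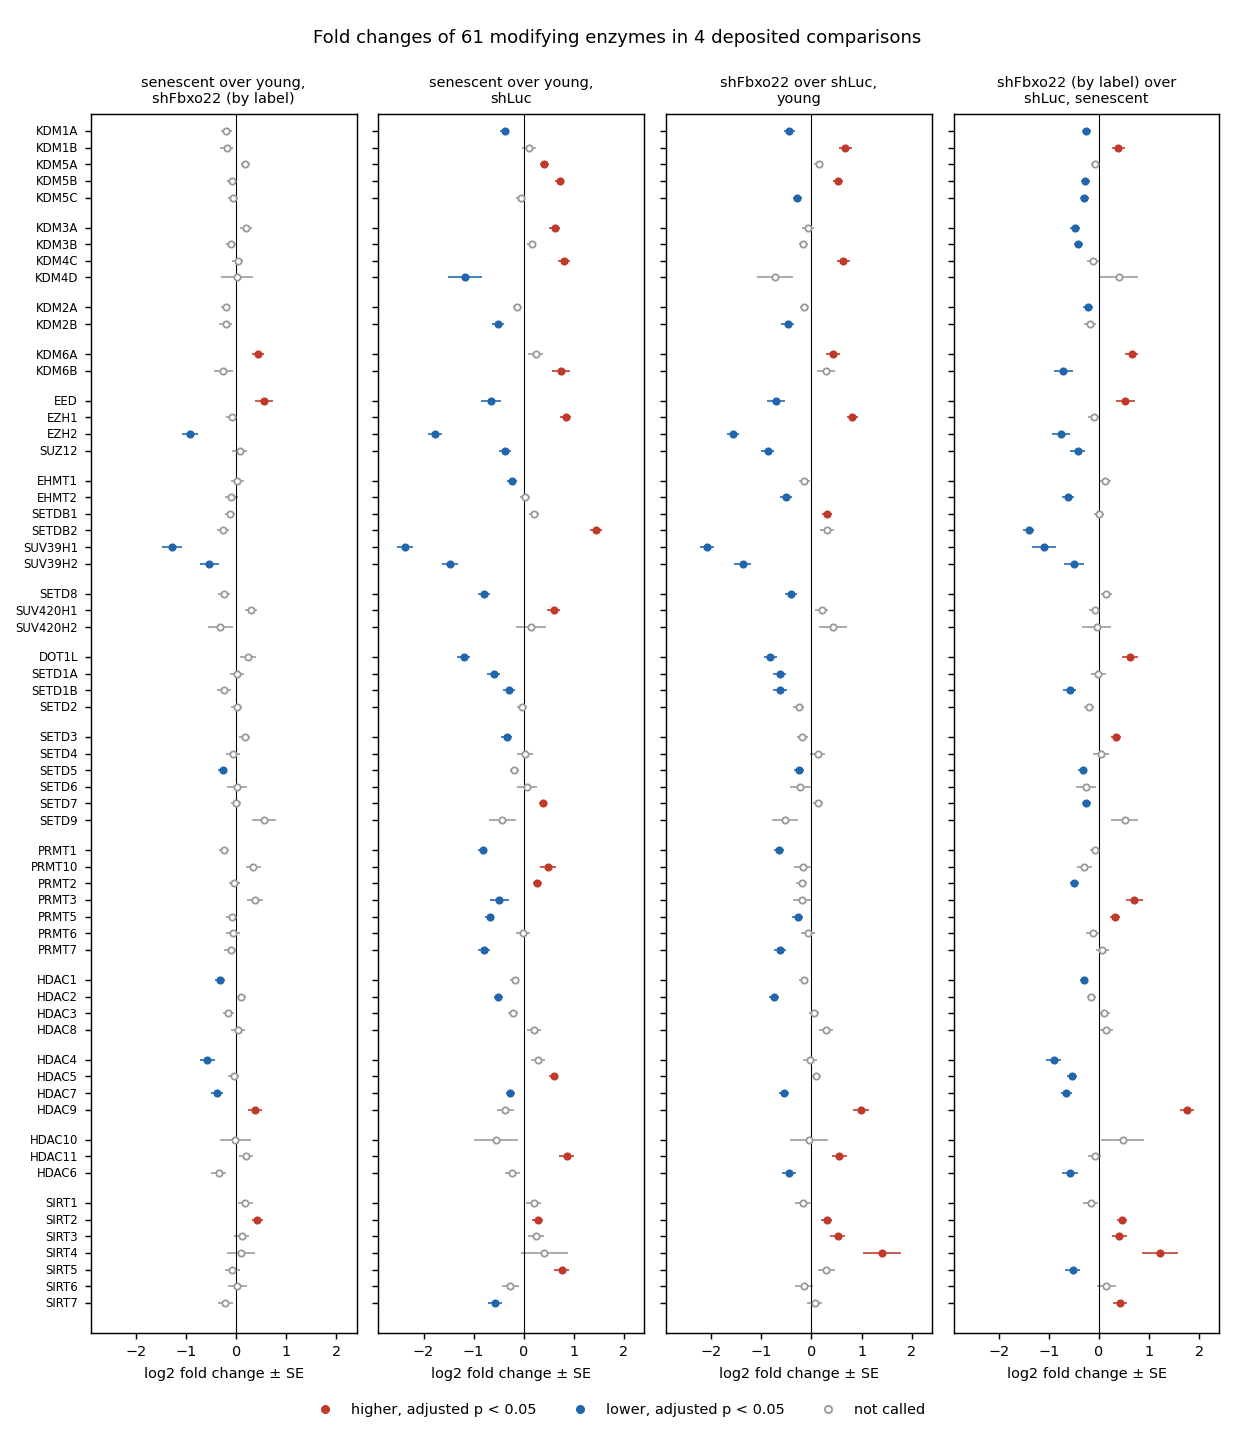
Log2 fold changes with their standard errors for the 61 tested members, by role, in the 4 deposited comparisons (columns). Filled points passed an adjusted p of 0.05, in red for higher and blue for lower. SUV39H1, SUV39H2 and EZH2 lie left of 0 in all 4 columns, and most points lie closer to 0 in the column for senescence with shFbxo22 than in the column for shLuc. All genes tested also had a smaller median size of change with shFbxo22 (0.19) than with shLuc (0.47).

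**Figure D2:**
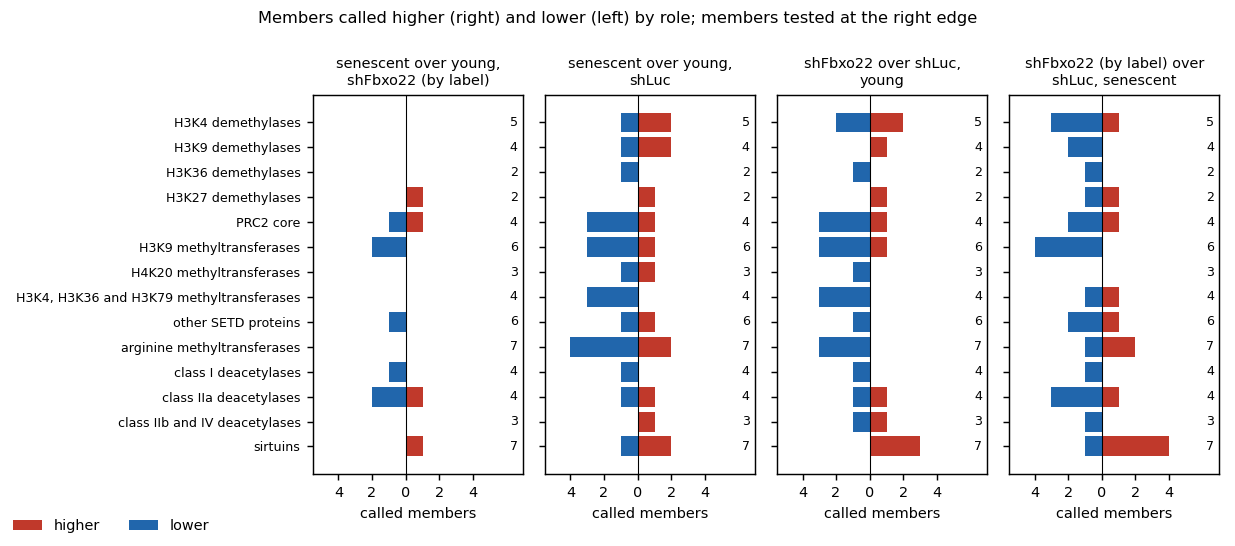
Number of members called higher (red, right of 0) and lower (blue, left of 0) in each role group and deposited comparison, with the number tested at the right edge of each panel. Senescence with shFbxo22 has 11 calls in all and senescence with shLuc 36, where 9 of the 14 role groups held calls in both directions.

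PRC2 deposits H3K27 methylation through EZH2 or its relative EZH1, with EED and SUZ12 as core subunits. All 4 core genes were called in senescent shLuc libraries: EZH2, EED and SUZ12 fell and EZH1 rose. There 42.6% of all genes tested were called, or 62.6% at a base mean of at least 50. EZH2 had group means of 163 in the libraries labelled shFbxo22 senescent, 313 in shFbxo22 young, 274 in shLuc senescent and 939 in shLuc young libraries. The shLuc young group stands alone at the high end. EZH2 was 3.41-fold lower in senescent than in young shLuc libraries, at -1.77 ± 0.13 on the log2 scale in the authors' deposited table (Wald test, adjusted p = 5.66e-40). It was 2.98-fold lower in shFbxo22 young than in shLuc young libraries, a difference without irradiation, at -1.57 ± 0.12 (adjusted p = 8.58e-38) in the authors' deposited table. It was also lower with senescence in shFbxo22 (-0.92 ± 0.15) and, by label, with shFbxo22 in senescent cells (-0.76 ± 0.17) in the authors' deposited tables. EZH1, which replaces EZH2 in PRC2 of cells that divide little, had group means of 1063 in the libraries labelled shFbxo22 senescent, 1129 in shFbxo22 young, 1139.9 in shLuc senescent and 639 in shLuc young libraries. EZH1 rose by a log2 fold change of 0.83 ± 0.11 (adjusted p = 1.74e-13) in senescent shLuc libraries and was higher by 0.81 ± 0.11 (adjusted p = 2.98e-12) in shFbxo22 young than in shLuc young libraries in the authors' deposited tables. Senescence with shFbxo22 gave it -0.09 ± 0.11, which was not called in the authors' deposited table. The shLuc young libraries were thus the highest group for EZH2 and the lowest for EZH1.

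EED, the subunit that binds trimethylated H3K27, had group means of 203 in the libraries labelled shFbxo22 senescent, 136 in shFbxo22 young, 141 in shLuc senescent and 221 in shLuc young libraries. It was the 1 member called in opposite directions by the senescence tables: higher with shFbxo22, at 0.56 ± 0.17 (adjusted p = 0.00982), and lower with shLuc, at -0.65 ± 0.19 (adjusted p = 0.00204), as log2 fold changes in the authors' deposited tables. SUZ12, which holds the complex together, was lower in senescent than in young shLuc libraries at -0.37 ± 0.12 and lower in shFbxo22 young than in shLuc young libraries at -0.87 ± 0.13 on the log2 scale in the authors' deposited tables. Its pseudogene row SUZ12P had a base mean of 59.0 to 80.5 in the authors' deposited tables, far under the 433 of the lowest SUZ12 group, and how reads shared by such copies were counted is not given in the sources used here.

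**Figure D3:**
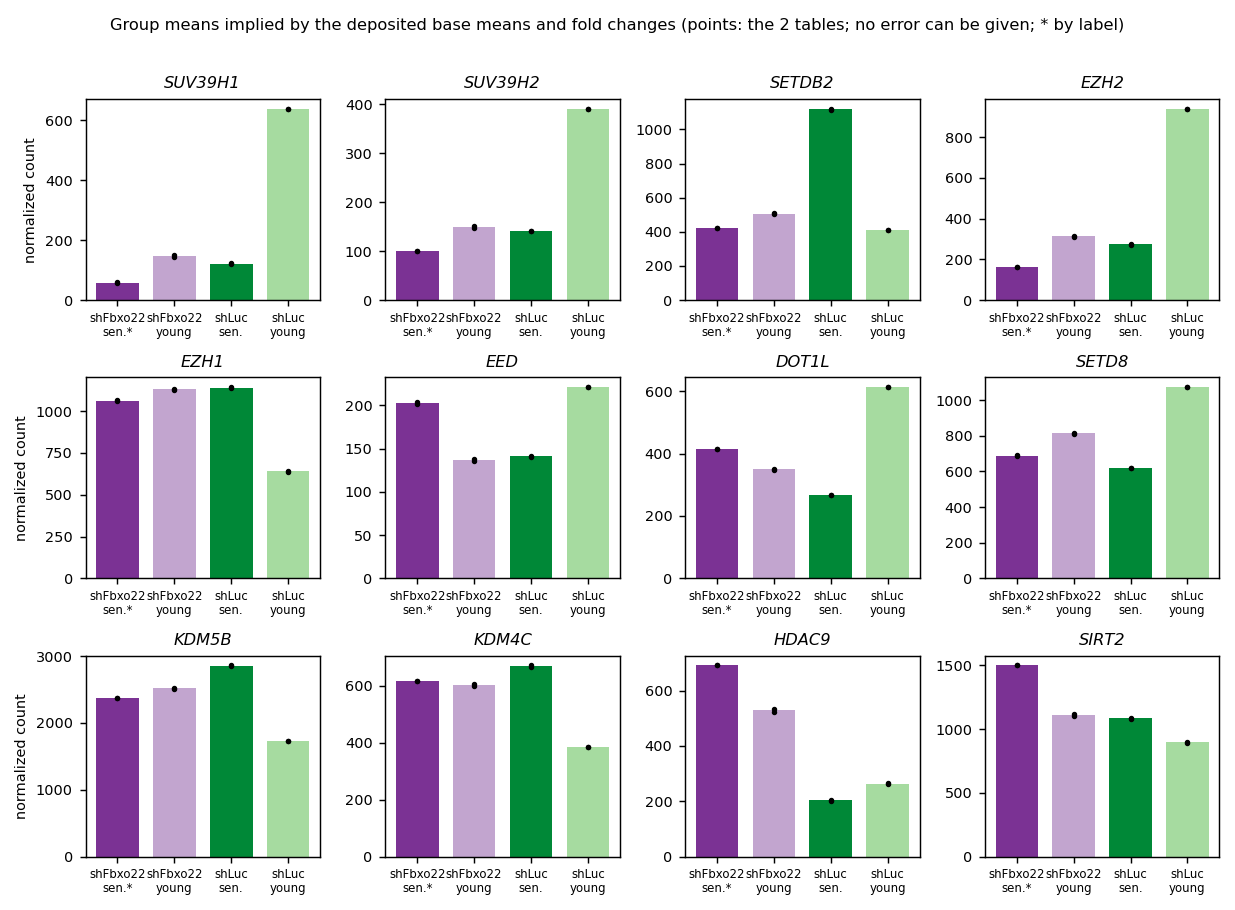
Group means in normalized counts (bars, linear axes from 0) of 12 members in the 4 groups, with points for the 2 reconstructions. No error can be given, and the asterisk marks the libraries labelled shFbxo22 senescent. SUV39H1, SUV39H2 and EZH2 are highest in shLuc young libraries, SETDB2 in shLuc senescent libraries and HDAC9 in the libraries labelled shFbxo22 senescent.

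The promoters of EZH2 and EZH1 are shown because the pair share a reaction and moved in opposite directions with shLuc. Both are RefSeq windows on GRCh38.p14 and run from 250 bases before to 30 bases after the start on the gene's strand, 5′ to 3′. EZH2 lies at chr7:148884262-148884541 (minus strand) and EZH1 at chr17:42745011-42745290 (minus strand). Capitals mark exact matches, on either strand, to 3 motifs of cell cycle promoters: an E2F core (TTTCCCGC, TTTGGCGC, TTTCGCGC or TTTGCCGC), a cell cycle homology region (CHR, TTTGAA or TTCGAA) and the CCAAT box. No match overlapped another in these windows. EZH2 had 2 windows, of which the one with the most motif matches is shown, while EZH1 had 1. The numbers of matches in the 2 genes are therefore not on an equal footing.
EZH2: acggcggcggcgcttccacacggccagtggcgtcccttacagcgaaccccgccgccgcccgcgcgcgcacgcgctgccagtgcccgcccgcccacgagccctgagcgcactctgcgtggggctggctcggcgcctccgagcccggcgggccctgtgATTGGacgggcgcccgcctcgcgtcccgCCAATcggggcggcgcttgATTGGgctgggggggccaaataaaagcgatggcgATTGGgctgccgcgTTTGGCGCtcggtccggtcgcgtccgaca
EZH1: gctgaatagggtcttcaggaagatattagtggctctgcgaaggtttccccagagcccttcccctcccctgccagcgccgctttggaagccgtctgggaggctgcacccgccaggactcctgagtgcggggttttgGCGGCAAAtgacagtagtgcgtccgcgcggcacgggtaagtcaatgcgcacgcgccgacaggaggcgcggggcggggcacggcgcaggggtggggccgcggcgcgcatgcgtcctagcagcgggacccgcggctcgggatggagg
The EZH2 window holds 4 CCAAT boxes, in either orientation, at bases -94, -66, -47 and -13 from the start, and an E2F core from base 2. The EZH1 window holds an E2F core on the opposite strand from base -115 and no CCAAT or CHR match, which says only that those letters are not in this window.

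H3K9 methyltransferases moved apart from one another. Of 6 tested in senescent against young shLuc libraries, SUV39H1, SUV39H2 and EHMT1 were lower, SETDB2 was higher, and SETDB1 and EHMT2 were not called. Of all genes tested, 21.3% were lower and 21.2% higher there, or 31.2% and 31.3% at a base mean of at least 50. SUV39H1, which writes H3K9 trimethylation in constitutive heterochromatin, had group means of 57.8 in the libraries labelled shFbxo22 senescent, 148 in shFbxo22 young, 122 in shLuc senescent and 638 in shLuc young libraries. It gave the largest fold change of any member, 5.17-fold lower in senescent than in young shLuc libraries (log2 fold change -2.37 ± 0.16, adjusted p = 6.88e-46) in the authors' deposited table. It was 4.22-fold lower in shFbxo22 young than in shLuc young libraries (-2.08 ± 0.14, adjusted p = 3.35e-47) in the authors' deposited table. SUV39H1 was also lower in both comparisons that involve the libraries labelled shFbxo22 senescent, at -1.29 ± 0.20 against shFbxo22 young and -1.10 ± 0.25 against shLuc senescent libraries in the authors' deposited tables. SUV39H2, its close relative, had group means of 100.4 in the libraries labelled shFbxo22 senescent, 149 in shFbxo22 young, 141 in shLuc senescent and 390.4 in shLuc young libraries. It was lower in the same 4 comparisons, with -0.53 ± 0.19 for senescence with shFbxo22, -1.46 ± 0.16 for senescence with shLuc, -1.38 ± 0.17 between the hairpins in young cells and -0.50 ± 0.20 in senescent cells in the authors' deposited tables. When p-values were adjusted without the authors' filter on low counts, SUV39H2 lost its call for senescence with shFbxo22 (adjusted p = 0.0687) and by label in senescent cells (adjusted p = 0.0527). The 4 comparisons share libraries with one another.

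SETDB2, which also methylates H3K9, went the other way with shLuc. Its group means were 424 in the libraries labelled shFbxo22 senescent, 507 in shFbxo22 young, 1117 in shLuc senescent and 409 in shLuc young libraries. The shLuc senescent group alone stood high. The log2 fold change for senescence was -0.26 ± 0.13 (adjusted p = 0.15) with shFbxo22 and 1.45 ± 0.12 (2.72-fold higher, adjusted p = 8.8e-34) with shLuc in the authors' deposited tables. By label, SETDB2 was 2.64-fold lower with shFbxo22 in senescent cells (-1.40 ± 0.11, adjusted p = 1.76e-36) in the authors' deposited table. SETDB1, the enzyme recruited by KAP1 to retroelements, differed only between the hairpins in young cells among the 4 comparisons, by 0.31 ± 0.10 in the authors' deposited table. EHMT2 (G9a), which writes H3K9 mono- and dimethylation with EHMT1, was lower with shFbxo22 in young cells at -0.51 ± 0.11 and, by label, in senescent cells at -0.62 ± 0.11 in the authors' deposited tables. Neither senescence comparison called EHMT2. EHMT1 gave -0.24 ± 0.10 (adjusted p = 0.0473) for senescence with shLuc in the authors' deposited table, a call lost without the filter on low counts, and was not called in the other 3.

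The promoters of SUV39H1, SUV39H2 and SETDB2 are shown for the same reason, 3 enzymes of one reaction with different directions, in the same window and with the same 3 motifs in capitals. SUV39H1 lies at chrX:48696484-48696763, SUV39H2 at chr10:14878616-14878895 and SETDB2 at chr13:49444024-49444303, all on the plus strand of GRCh38.p14 (RefSeq). SUV39H1 had 2 windows, of which the one with the most motif matches is shown, while SUV39H2 and SETDB2 had 1 each.
SUV39H1: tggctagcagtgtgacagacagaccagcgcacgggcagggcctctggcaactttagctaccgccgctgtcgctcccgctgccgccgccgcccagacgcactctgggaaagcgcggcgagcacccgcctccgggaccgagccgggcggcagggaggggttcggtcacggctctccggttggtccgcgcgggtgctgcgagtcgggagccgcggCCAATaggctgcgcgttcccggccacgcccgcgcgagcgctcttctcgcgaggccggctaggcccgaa
SUV39H2: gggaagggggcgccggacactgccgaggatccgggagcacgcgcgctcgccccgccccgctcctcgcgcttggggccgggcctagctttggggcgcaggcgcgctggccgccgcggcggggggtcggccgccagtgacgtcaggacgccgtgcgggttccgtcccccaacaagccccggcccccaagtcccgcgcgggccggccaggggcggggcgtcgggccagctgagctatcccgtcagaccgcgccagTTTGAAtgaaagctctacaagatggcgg
SETDB2: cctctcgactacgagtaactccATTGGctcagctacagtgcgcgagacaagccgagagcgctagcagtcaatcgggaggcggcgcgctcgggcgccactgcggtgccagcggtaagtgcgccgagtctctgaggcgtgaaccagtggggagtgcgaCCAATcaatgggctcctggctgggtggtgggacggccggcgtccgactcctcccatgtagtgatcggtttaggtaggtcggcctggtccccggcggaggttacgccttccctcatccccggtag
SUV39H1 holds a CCAAT box from base -38, SUV39H2 a CHR match from base 3, and SETDB2 CCAAT boxes from bases -94 and -228. A promoter window was found for 58 members, 4 of them through a RefSeq synonym, and DOT1L, HDAC5, SETD1B and SIRT7 had none. In windows that run 50 bases past the start, an E2F core was in 10.3% of members and in 3.99% of the 27305 genes of the RefSeq table. A CHR match was in 13.8% of members and 19.5% of genes, and a CCAAT box in 43.1% of members and 39.7% of genes. By direction in the shLuc senescence table, CCAAT was in 10 of 18 members called lower, 3 of 14 called higher and 11 of 25 not called, and the E2F core in 3 of 18, 1 of 14 and 2 of 25. These are counts of letters in a window and not of bound sites.

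Of 4 H3K9 demethylases, none was called for senescence with shFbxo22, where 17.7% of all genes tested were called. With shLuc KDM4C and KDM3A rose, KDM4D fell and KDM3B was not called. KDM4C, which removes H3K9 trimethylation, had group means of 618 in the libraries labelled shFbxo22 senescent, 602 in shFbxo22 young, 669 in shLuc senescent and 384 in shLuc young libraries. It rose by 0.80 ± 0.12 (1.74-fold, adjusted p = 3.1e-10) on the log2 scale with senescence in shLuc and was higher by 0.64 ± 0.13 with shFbxo22 in young cells in the authors' deposited tables. KDM3A, an H3K9 mono- and dimethyl demethylase, rose by 0.61 ± 0.10 (1.53-fold, adjusted p = 1.53e-08) with senescence in shLuc and was lower at -0.48 ± 0.10 in the libraries labelled shFbxo22 senescent than in shLuc senescent libraries in the authors' deposited tables. KDM3B was called only in that last comparison, at -0.41 ± 0.09 in the authors' deposited table. KDM4D, which lacks the chromatin-reading domains of KDM4C, was a weakly counted gene with group means of 29.5 in the libraries labelled shFbxo22 senescent, 29.9 in shFbxo22 young, 22.5 in shLuc senescent and 50.8 in shLuc young libraries. It was lower with senescence in shLuc at -1.17 ± 0.34 (adjusted p = 0.00171) in the authors' deposited table.

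H3K4 demethylases of the KDM5 and KDM1 families likewise differed from gene to gene. KDM5B, which removes H3K4 di- and trimethylation and which acts with RB at E2F targets in senescent cells, had group means of 2369.9 in the libraries labelled shFbxo22 senescent, 2516 in shFbxo22 young, 2853 in shLuc senescent and 1728 in shLuc young libraries. On the log2 scale it was at -0.09 ± 0.09, not called, with senescence in shFbxo22 and rose by 0.72 ± 0.09 (1.65-fold, adjusted p = 1.05e-14) in shLuc in the authors' deposited tables. Between the hairpins it was higher with shFbxo22 in young cells (0.53 ± 0.10) and lower by label in senescent cells (-0.27 ± 0.08) in the authors' deposited tables. KDM5A, the related RB-binding demethylase, rose by 0.41 ± 0.09 with senescence in shLuc in the authors' deposited table and was called in no other comparison. KDM1A (LSD1), a flavin-dependent demethylase of the CoREST complex, was lower with senescence in shLuc at -0.38 ± 0.09, with shFbxo22 in young cells at -0.44 ± 0.11 and by label in senescent cells at -0.26 ± 0.09 in the authors' deposited tables. Its paralog KDM1B was higher with shFbxo22 in young cells by 0.68 ± 0.13 and by label in senescent cells by 0.38 ± 0.13 in the authors' deposited tables. KDM5C was lower at -0.29 in both hairpin comparisons (SE 0.09 in young and 0.10 in senescent cells) in the authors' deposited tables. None of the 5 H3K4 demethylases was called for senescence with shFbxo22, where 17.7% of all genes tested were called.

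The H3K27 demethylases KDM6A (UTX) and KDM6B (JMJD3) did not move together. KDM6B, an inducible enzyme, had group means of 142 in the libraries labelled shFbxo22 senescent, 169.3 in shFbxo22 young, 232 in shLuc senescent and 138 in shLuc young libraries. It rose by 0.74 ± 0.18 (1.67-fold, adjusted p = 0.000166) with senescence in shLuc and was lower at -0.72 ± 0.19 by label in senescent cells in the authors' deposited tables. KDM6A had 546 in the libraries labelled shFbxo22 senescent, 399 in shFbxo22 young, 346 in shLuc senescent and 293 in shLuc young libraries as group means. It was higher with senescence in shFbxo22 by 0.44 ± 0.13 (adjusted p = 0.00421), with shFbxo22 in young cells by 0.43 ± 0.14 and by label in senescent cells by 0.65 ± 0.13 in the authors' deposited tables. KDM2B, an H3K36 demethylase that brings Polycomb complexes to CpG islands, was lower with senescence in shLuc at -0.51 ± 0.12 and with shFbxo22 in young cells at -0.48 ± 0.12 in the authors' deposited tables. KDM2A was called once, at -0.22 ± 0.09 by label in senescent cells in the authors' deposited table, and this call was lost without the filter.

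DOT1L, the enzyme that methylates H3K79, stood out among the writers of active marks. Its group means were 414 in the libraries labelled shFbxo22 senescent, 350 in shFbxo22 young, 268 in shLuc senescent and 613 in shLuc young libraries. Its log2 fold change for senescence was 0.24 ± 0.15 (adjusted p = 0.352) with shFbxo22 and -1.20 ± 0.13 (2.29-fold lower, adjusted p = 2.73e-18) with shLuc in the authors' deposited tables. Between the hairpins it was lower with shFbxo22 in young cells (-0.82 ± 0.14) and higher by label in senescent cells (0.62 ± 0.16) in the authors' deposited tables. SETD1A and SETD1B, catalytic subunits of the H3K4 methyltransferase complexes that contain CXXC1, were lower with senescence in shLuc at -0.60 ± 0.13 and -0.29 ± 0.12 in the authors' deposited table. Both were at -0.63 ± 0.13 with shFbxo22 in young cells, and SETD1B was also lower by label in senescent cells, at -0.59 ± 0.13, in the authors' deposited tables. SETD2, which writes H3K36 trimethylation, was called in none of the 4 comparisons, with group means between 1086 and 1292.

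Among H4K20 methyltransferases, SETD8 (KMT5A), which writes the monomethyl mark that peaks in mitosis, had group means of 688 in the libraries labelled shFbxo22 senescent, 815 in shFbxo22 young, 620.2 in shLuc senescent and 1073 in shLuc young libraries. It fell by 0.79 ± 0.12 on the log2 scale with senescence in shLuc (1.73-fold, adjusted p = 4.5e-11) and was lower at -0.40 ± 0.12 with shFbxo22 in young cells in the authors' deposited tables. SUV420H1, which adds the second methyl group, rose by 0.60 ± 0.13 with senescence in shLuc in the authors' deposited table, and SUV420H2 was called in none. Of the other 6 SETD genes, SETD7, a methyltransferase of H3K4 and of proteins such as p53, rose by 0.38 ± 0.08 and SETD3, an actin histidine methyltransferase, was lower at -0.34 ± 0.11 with senescence in shLuc in the authors' deposited table. SETD5 was lower with senescence in shFbxo22 (-0.27 ± 0.10, a call lost without the filter), with shFbxo22 in young cells (-0.25 ± 0.09) and by label in senescent cells (-0.33 ± 0.09) in the authors' deposited tables. An antisense row, SETD5-AS1, had a base mean of 86.4 to 119 in the authors' deposited tables, and whether counting used strand is not given in the sources used here. SETD4, SETD6 and SETD9 were called in none of the 4 comparisons.

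Of 7 arginine methyltransferases tested with senescence in shLuc, PRMT1, PRMT3, PRMT5 and PRMT7 fell, PRMT2 and PRMT10 rose, and PRMT6 was not called. Of all genes tested, 21.3% were lower and 21.2% higher there, or 31.2% and 31.3% at a base mean of at least 50. PRMT1, which produces most asymmetric dimethylarginine, had group means of 2291 in the libraries labelled shFbxo22 senescent, 2702 in shFbxo22 young, 2411 in shLuc senescent and 4245 in shLuc young libraries. It was 1.76-fold lower with senescence in shLuc (-0.82 ± 0.09, adjusted p = 1.29e-17) and 1.58-fold lower with shFbxo22 in young cells (-0.66 ± 0.10, adjusted p = 6.97e-10) in the authors' deposited tables. PRMT7, the monomethylating enzyme, gave -0.80 ± 0.12 and -0.63 ± 0.12 in the same comparisons in the authors' deposited tables. PRMT5, which produces symmetric dimethylarginine, gave -0.68 ± 0.09 with senescence in shLuc, -0.27 ± 0.11 with shFbxo22 in young cells (a call lost without the filter on low counts) and 0.32 ± 0.10 by label in senescent cells in the authors' deposited tables. PRMT3, which modifies a ribosomal protein, was lower with senescence in shLuc at -0.49 ± 0.18 and higher by label in senescent cells by 0.70 ± 0.17 in the authors' deposited tables. PRMT2 rose by 0.27 ± 0.09 and PRMT10 by 0.48 ± 0.16 with senescence in shLuc in the authors' deposited table. None of the 7 tested PRMT genes was called for senescence with shFbxo22, where 17.7% of all genes tested were called. PRMT8, known as a brain enzyme, had a base mean under 1 in the authors' deposited tables and was not tested.

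Class I deacetylases are nuclear, and each of the 4 comparisons called 1 of the 4. The shares of all genes called were 17.7% for senescence with shFbxo22 and 42.6% with shLuc. They were 35.9% between the hairpins in young cells and 40.1% in senescent cells. At a base mean of at least 50 the shares were 24.3%, 62.6%, 49% and 59.1% in the same order. HDAC2 was lower with senescence in shLuc at -0.51 ± 0.10 (1.42-fold, adjusted p = 6.75e-07) and with shFbxo22 in young cells at -0.75 ± 0.11 in the authors' deposited tables. HDAC1, its partner in the SIN3, NuRD and CoREST complexes, was lower instead with senescence in shFbxo22 (-0.32 ± 0.09) and by label in senescent cells (-0.30 ± 0.08) in the authors' deposited tables. HDAC3 and HDAC8 were called in none of the 4 comparisons.

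Class IIa deacetylases, which shuttle between nucleus and cytoplasm and bind MEF2 factors, spread further. HDAC9 had group means of 691 in the libraries labelled shFbxo22 senescent, 529 in shFbxo22 young, 203 in shLuc senescent and 263 in shLuc young libraries, so both shFbxo22 groups stood above both shLuc groups. HDAC9 was 3.38-fold higher by label in senescent cells (log2 fold change 1.76 ± 0.14, adjusted p = 4.61e-37), the largest positive change of a member in any comparison, and 1.98-fold higher with shFbxo22 in young cells (0.98 ± 0.16, adjusted p = 1.57e-08) in the authors' deposited tables. HDAC4 had group means of 206 in the libraries labelled shFbxo22 senescent, 308 in shFbxo22 young, 382 in shLuc senescent and 313 in shLuc young libraries. It was lower with senescence in shFbxo22 at -0.57 ± 0.15 (adjusted p = 0.00159) and by label in senescent cells at -0.90 ± 0.15 (adjusted p = 2.98e-08) in the authors' deposited tables. HDAC5 rose by 0.60 ± 0.09 (adjusted p = 2.03e-10) with senescence in shLuc and was lower by label in senescent cells at -0.55 ± 0.10 in the authors' deposited tables. HDAC7 was lower at -0.38 ± 0.12 with senescence in shFbxo22, -0.27 ± 0.09 with senescence in shLuc, -0.54 ± 0.10 between the hairpins in young cells and -0.66 ± 0.11 by label in senescent cells in the authors' deposited tables. HDAC11, the class IV enzyme, rose by 0.86 ± 0.15 (1.81-fold, adjusted p = 6.34e-08) with senescence in shLuc and was higher by 0.56 ± 0.15 with shFbxo22 in young cells in the authors' deposited tables. HDAC6, the cytoplasmic tubulin deacetylase, was lower with shFbxo22 in young cells (-0.45 ± 0.14) and by label in senescent cells (-0.58 ± 0.16) in the authors' deposited tables. HDAC10 was called in none, with group means of 15.3 to 22.7.

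Sirtuins are the NAD-dependent deacylases. SIRT2, which deacetylates tubulin and H4K16, had group means of 1501 in the libraries labelled shFbxo22 senescent, 1113 in shFbxo22 young, 1087 in shLuc senescent and 896 in shLuc young libraries. It was higher by 0.42 ± 0.10 on the log2 scale with senescence in shFbxo22, 0.28 ± 0.11 in shLuc, 0.30 ± 0.12 with shFbxo22 in young cells and 0.46 ± 0.09 by label in senescent cells in the authors' deposited tables. The call in young cells was lost without the authors' filter on low counts (adjusted p = 0.0522). SIRT5, the mitochondrial desuccinylase, rose by 0.75 ± 0.15 (1.69-fold, adjusted p = 5.1e-06) with senescence in shLuc and was lower by label in senescent cells at -0.53 ± 0.15 in the authors' deposited tables. SIRT3, the main mitochondrial deacetylase, was higher with shFbxo22 in young cells (0.52 ± 0.15) and by label in senescent cells (0.40 ± 0.15) in the authors' deposited tables. SIRT4, another mitochondrial sirtuin with few reads, was higher in the same comparisons by 1.42 ± 0.38 and 1.22 ± 0.36 in the authors' deposited tables, where its base mean was 14.2 to 40.2. SIRT7, which acts in the nucleolus, was lower with senescence in shLuc at -0.57 ± 0.14 and higher by label in senescent cells by 0.41 ± 0.14 in the authors' deposited tables. SIRT1 and SIRT6, the sirtuins most often linked to ageing, were called in none of the 4 comparisons, with group means of 257 to 328 and 223 to 268.

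Whether the response to senescence differed between the hairpins was tested as the log2 fold change with shFbxo22 minus that with shLuc, from tables that share no library. This difference passed an adjusted p of 0.05 (normal z, Benjamini-Hochberg over 18598 genes) for 27 of 61 members, 16 positive and 11 negative, against 37% of all genes (18.8% positive, 18.1% negative). Where the base mean reached 50 in both tables the shares were 47.4% of members and 48.6% of genes, so the share of members was near the background, with 28.1% of members against 24.9% of genes positive and 19.3% against 23.7% negative. Calls with shLuc and not with shFbxo22 were made for 30 members (49.2%, against 36% of the 18598 genes tested in both tables), calls in the same direction with both for 5 (8.2%, against 7.22%) and in opposite directions for 1, EED (1.64%, against 5.31%). The 2 largest differences were in SETDB2, at -1.71 (95% interval -2.05 to -1.37, adjusted p = 9.57e-22), and DOT1L, at 1.43 (1.03 to 1.83, adjusted p = 2.78e-11). Neither was called for senescence with shFbxo22, while with shLuc SETDB2 was higher and DOT1L lower. For SUV39H1, SUV39H2 and EZH2, which fell with both hairpins, the difference was 1.08 (0.57 to 1.59), 0.93 (0.44 to 1.43) and 0.85 (0.46 to 1.25), with adjusted p of 0.000178, 0.00101 and 0.000137. Each of these 3 fell less with shFbxo22, whose young libraries had group means of 148, 149 and 313 normalized counts, against 638, 390.4 and 939 in shLuc young libraries. The negative differences included EZH1 at -0.93, KDM6B at -0.998, HDAC4 at -0.86, SIRT5 at -0.83, KDM5B at -0.81 and KDM4C at -0.77, of which HDAC4 alone was called for senescence with shFbxo22. Several members had intervals that span 0 yet do not exclude sizeable differences, such as HDAC10 (-0.50 to 1.58) and SIRT4 (-1.38 to 0.76). The interval was narrow for KDM2A (-0.34 to 0.17), KDM5C (-0.27 to 0.25) and SETD5 (-0.33 to 0.18). The fold changes in the tables are moderated towards 0, and judged by the largest standard error alone more so with shFbxo22 (0.333) than with shLuc (0.697). Stronger moderation with shFbxo22 would move a difference towards the sign opposite to the shLuc change. All 16 positive differences had a negative shLuc fold change, and all 11 negative differences a positive one. Because the shLuc change is subtracted, this pairing arises wherever the shFbxo22 change is the smaller in size, whatever the reason. The median size of change was 0.18 with shFbxo22 and 0.38 with shLuc for members, and 0.19 and 0.47 for all genes tested. The pairing therefore cannot single out moderation, and its share over all genes was not computed. The part of moderation in these differences was not tested. The same contrast taken from the hairpin tables, as senescent minus young, called 26 of the 27, KDM4D being the exception. It rests on the same libraries, and its values lay within 0.11 of the first for every member tested. Its outcome was thus largely fixed beforehand, and it is no independent check.

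**Figure D4:**
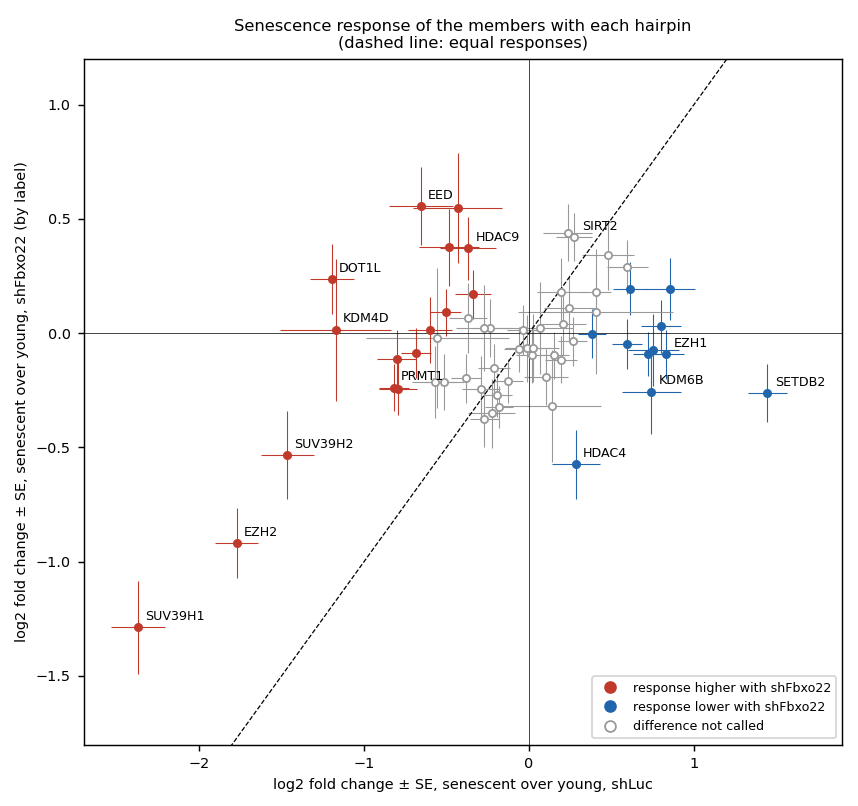
Log2 fold change with its standard error for senescent over young libraries with shFbxo22 (vertical axis, by label) against shLuc (horizontal axis) for 61 members, coloured by the test of the difference. Members on the dashed line respond equally. Of the 27 called, 16 lie above the line, DOT1L and SUV39H1 among them, and 11 below it, with SETDB2 farthest.

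The 11 members called in none of the 4 comparisons were HDAC3, HDAC8, HDAC10, PRMT6, SETD2, SETD4, SETD6, SETD9, SIRT1, SIRT6 and SUV420H2. The share of all genes called in none was not computed, so whether this number is unusual is unknown. The largest SE over the 4 deposited tables was 0.11 on the log2 scale for HDAC3 and SETD2, and between 0.14 and 0.43 for the others, HDAC10 having the widest.

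Genes that work with the members were followed as lists. Of all genes tested, senescence left 8.16% higher and 9.57% lower with shFbxo22, and 21.2% higher and 21.3% lower with shLuc. Between the hairpins, 18.7% were higher and 17.3% lower in young cells, and 20.2% higher and 19.9% lower by label in senescent cells. Of 22 accessory PRC2 and PRC1 genes, 0 were higher and 4 lower with senescence in shFbxo22, 9 higher and 3 lower with senescence in shLuc, 2 higher and 3 lower between the hairpins in young cells, and 1 higher and 11 lower by label in senescent cells in the authors' deposited tables. PHF19, a PRC2 subunit that reads H3K36 methylation, was lower at -1.69 ± 0.13 for senescence with shFbxo22, -2.28 ± 0.10 with shLuc and -1.81 ± 0.10 between the hairpins in young cells in the authors' deposited tables. CBX2, a Polycomb reader of methylated H3K27, was lower by label in senescent cells at -2.06 ± 0.36 in the authors' deposited table. Of 8 DNA methylation genes, 1 was higher and 3 lower with senescence in shLuc, with UHRF1, which recruits the maintenance methyltransferase, at -3.39 ± 0.13 and DNMT1, that methyltransferase, at -1.92 ± 0.09 in the authors' deposited table. Of 19 further lysine methyltransferases and partners, 4 were higher and 8 lower in the same comparison, with WHSC1 (NSD2), an H3K36 dimethyltransferase, at -1.86 ± 0.08 in the authors' deposited table. Of 12 acetyltransferases, 4 were higher and 3 lower, with HAT1, which acetylates newly made H4, at -0.97 ± 0.13 and KAT2B (PCAF) at 0.96 ± 0.12 in the authors' deposited table, and none was called with senescence in shFbxo22. Of 23 genes of the SIN3, NuRD, CoREST and NCoR deacetylase complexes, 1 was higher and 6 lower with senescence in shFbxo22, and 5 were higher and 7 lower in shLuc in the authors' deposited tables. MTA2, a NuRD subunit, was at 0.95 ± 0.09 with senescence in shFbxo22 and -0.79 ± 0.09 in shLuc in the authors' deposited tables. Of 8 tested demethylases outside the KDM names, 1 was higher and 1 lower with senescence in shLuc, and JHDM1D (KDM7A), which removes H3K9 and H3K27 dimethylation, rose by 1.85 ± 0.21 in the authors' deposited table.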

How the data were processed

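RNA sequencing of 12 libraries in 4 groups was analysed through 4 tables of the authors' own comparisons. The tools named by the submitters' processing notes are STAR 2.3.0, Bowtie2 2.0.0, R 3.2.2 and DESeq2 1.14.1, and the builds GRCh37 and hg19, with no role given. Per the file headers, the base mean is a signal, the authors' mean normalized count over 6 libraries. A log2 fold change with its standard error was deposited beside it. The Wald statistic is a score deposited by the authors. The p-value and adjusted p-value were deposited by the authors and are used as such. The tables hold no value per library, so no test on counts could be run, and the depth of each library is unknown.

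Each table has 55765 rows, of which 28 with a date in place of a symbol were left out. The rule for members reads gene symbols alone, but the choice to describe these families, and the gene lists, were made with earlier results of these data known. The sign of each table was settled by computing group means from base mean and fold change: of 16 choices, 1 let the tables meet, with a mean log2 gap of 0.00918 over 9109 genes, against 0.131 for the next. The tables of senescence with shFbxo22 and of the hairpins in senescent cells were turned in sign, and fold changes credited to these tables have the opposite sign in the deposit. Fold changes have senescent (over young) or shFbxo22 (over shLuc) on top. Every member could be named. Level, fold change, SE and adjusted p were given for at most the 8 largest changes in each direction per comparison and for members whose response differed, and at most 3 genes of each other list were named. Analyses used Python 3.11.15 with pandas 2.3.3, numpy 2.4.6 and scipy 1.17.1, and were tested on simulated data. Alternatives were the filter, the threshold, a base mean of at least 50, centring on the median, a fold minimum and the other pair of tables.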

Additional observations from a re-analysis of the deposited data

Results flagged for a closer look

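Responses to senescence that differed between the hairpins, by the test of the difference itself, were found for 27 members. The values are log2 fold changes with shFbxo22 minus those with shLuc. The libraries labelled shFbxo22 senescent, in which FBXO22 was not lower than in shLuc senescent libraries, enter every one of them.

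Positive differences were 1.43 for DOT1L, 1.21 for EED, 1.19 for KDM4D, 1.08 for SUV39H1, 0.98 for SETD9, 0.93 for SUV39H2, 0.86 for PRMT3, 0.85 for EZH2, 0.74 for HDAC9, 0.69 for PRMT7, 0.61 for SETD1A, 0.60 for PRMT5, 0.60 for HDAC2, 0.58 for PRMT1, 0.55 for SETD8 and 0.51 for SETD3. Of these 16, SETD9 was called in neither senescence table, with a log2 fold change of 0.55 ± 0.24 with shFbxo22 and -0.43 ± 0.27 with shLuc in the authors' deposited tables. Negative differences were -1.71 for SETDB2, -0.998 for KDM6B, -0.93 for EZH1, -0.86 for HDAC4, -0.83 for SIRT5, -0.81 for KDM5B, -0.77 for KDM4C, -0.66 for HDAC11, -0.64 for HDAC5, -0.42 for KDM3A and -0.38 for SETD7. Of all 61 members tested, 44.3% differed, against 37% of all genes. Where the base mean reached 50 in both tables, the shares were 47.4% of members and 48.6% of genes. HDAC9 was higher with senescence in shFbxo22 (0.37 ± 0.14, a call lost without the filter on low counts) and at -0.37 ± 0.17, not called, in shLuc in the authors' deposited tables.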

How the results depend on the processing

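Counts of members called stayed within 1.5 times the reported ones under the alternatives tried, with 3 exceptions. For senescence with shFbxo22 the 11 members became 7 at an adjusted p under 0.01 and 5 with a log2 fold change of at least 0.5 in either direction. For the hairpins in senescent cells the 35 became 17 with that fold minimum. Over called members and alternatives, 696 checks were made, of which 618 kept the call, 78 lost it and 0 changed sign. Most alternatives reuse the same fold change and so could not change a sign. The other pair of tables holds the same libraries and nearly the same differences, so it is no independent check either. Called members that the base mean of at least 50 removed were not checked under it and are not counted as lost. The fold minimum, which by construction removes small changes, accounts for most losses, and without it 32 of 583 were lost. With no filter on low counts the losses were HDAC9, SUV39H2 and SETD5 for senescence with shFbxo22, EHMT1 with shLuc, SIRT2 and PRMT5 between the hairpins in young cells, and SUV39H2 and KDM2A in senescent cells. At 0.01 the losses were HDAC9, SUV39H2, HDAC7 and SETD5 for senescence with shFbxo22, 4 members with shLuc, 4 between the hairpins in young cells, 7 in senescent cells, and KDM4D, SETD9, KDM3A and SETD7 among the differences. KDM4D was also lost when differences were taken from the hairpin tables. No paired analysis was possible because no table has a value per library, and leaving out replicates and another normalization were not run for the same reason. Members with a base mean under 100 in some table, 8 of them, were measured least precisely, and moderated fold changes understate their change.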
